A study of Mus musculus with 6 samples.

Results

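Matrix metalloproteinases, ADAMTS proteases and their TIMP inhibitors were followed in cochlear tissue of mice with and without a working *Cmah* gene, which encodes the hydroxylase that makes the sialic acid Neu5Gc. Members were taken by symbol (*Mmp*, *Timp*, *Adamts* or *Adamtsl* followed by a number), with 1 probe per symbol, the one with the highest mean signal of the 6 arrays. This gave 43 genes of the 18138 on the Illumina MouseRef-8 v2 array, which are read by 57 of its 25697 probes. The 3 WT and the 3 *Cmah*-null mice were C57BL/6 in the labels and C57BL/6J in the study's methods, 12 months old and untreated as far as the labels say, and the labels give neither sex nor whether tissue was pooled. Total RNA of the tissue was hybridized to 1 array per sample, and the comparison asks which genes differ in an inner ear that cannot make Neu5Gc. Values are log2 signals, quantile-normalized by the authors, and a log2 change is the *Cmah*-null mean minus the WT mean. A probe counts as detected on an array where its signal exceeded the negative controls at a detection p under 0.05.

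The matrix metalloproteinases (MMPs) are zinc enzymes that cut collagens, laminins, proteoglycans and many signalling proteins outside the cell. Most are secreted as inactive proenzymes that have to be cut before they work, and the membrane-type MMPs, activated by furin-like enzymes, stay at the cell surface. ADAMTS proteases trim procollagens and cut the large proteoglycans, ADAMTS-like proteins share their domains without the protease, and the 4 TIMPs block the active site. In the inner ear these enzymes act on bone of the otic capsule, on cartilage-like matrix and on the basement membranes around vessels and nerve fibres.

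The samples set limits on all values. The probe of *Cmah* was near background, detected on 1 WT and 2 *Cmah*-null arrays, and at means of 7.47 (WT) and 7.73 (*Cmah*-null) on the log2 scale with SDs of 0.34 and 0.40 (n = 3 each) it gave no check of genotype. The normalized columns are headed "old" where the sample records say *Cmah*-null, and were matched through group and number. Of 11 hair cell markers 5 were detected on at least 3 arrays, with *Myo7a*, *Otof* and *Tmc1* on 6. The markers *Slc26a5*, *Pou4f3*, *Atoh1* and *Strc* were detected on none. Of the skeletal muscle markers 10 of 10, and of the brown fat markers 5 of 6, were detected on at least 3 arrays. The summed signal of the brown fat markers was 15.15 to 15.80 (log2) in WT and 12.89 to 14.43 in *Cmah*-null samples. That of the muscle markers was 17.06 to 18.07 and 17.13 to 17.40. In such bulk tissue, fewer cells of a type and less RNA per cell cannot be told apart. *Cmah*-null replicates 1 and 2 were the most alike pair, with an SD of 0.13 for their log2 difference over all probes against 0.31 to 0.64 for the other pairs, and *Cmah*-null replicate 3 stood furthest from the rest.

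On chromosome 9, 10 of the MMP genes lie side by side in the order *Mmp13*, *Mmp12*, *Mmp1b*, *Mmp3*, *Mmp1a*, *Mmp10*, *Mmp8*, *Mmp27*, *Mmp20* and *Mmp7* in RefSeq for GRCm38.p6, with 0 other protein-coding genes between them. A RefSeq promoter was found for 32 of the 43 members, and the 250 bases before each start were searched on both strands for the AP-1 letters TGAGTCA or TGACTCA, which Fos and Jun proteins bind. They were present in 7 of the 32 (21.9%), against 5.16% of the 27025 genes with a promoter, and all 7 were among the 10 genes of the run (0 of the other 22). A gene was counted where any of its listed starts had the letters, and *Mmp12* and *Mmp7* had them before 1 of 2 listed starts. The last 100 bases before the start are shown for the 3 AP-1 carriers detected on all 6 arrays, and for *Mmp24*, 1 of the 2 genes whose groups did not overlap, with AP-1 letters in capitals. *Mmp13* is at chr9:7272414-7272513, *Mmp3* at chr9:7445722-7445821, *Mmp1a* at chr9:7464041-7464140 and *Mmp24* at chr2:155775242-155775341, all on the plus strand.
Mmp13: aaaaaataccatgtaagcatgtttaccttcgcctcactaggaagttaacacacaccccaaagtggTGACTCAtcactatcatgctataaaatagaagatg
Mmp3: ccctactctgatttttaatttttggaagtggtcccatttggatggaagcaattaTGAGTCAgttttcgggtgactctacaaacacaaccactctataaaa
Mmp1a: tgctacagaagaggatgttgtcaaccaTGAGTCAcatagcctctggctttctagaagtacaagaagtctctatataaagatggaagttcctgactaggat
Mmp24: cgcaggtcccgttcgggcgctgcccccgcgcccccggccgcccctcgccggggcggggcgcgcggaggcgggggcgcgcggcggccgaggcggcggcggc

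The AP-1 letters began 35 bases before the start in *Mmp13*, 46 in *Mmp3* and 73 in *Mmp1a*, each followed by TATAAA closer to the start. TATAAA or TTTATA stood in 10 of the 32 promoters (31.2%), against 14.3% of all. *Mmp24* held neither, and G or C made up 79.2% of its 250 bases against a median of 52.4% over all promoters. A match in these letters is a description and was not tested as a binding site.

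None of the 43 genes passed the adjusted test between the genotypes. Of the 43, 21 were detected on 6 arrays, 8 on 3 to 5, 3 on 1 or 2 (*Adamts8*, *Adamtsl2*, *Mmp19*) and 11 on none (*Adamts3*, *Adamts12*, *Adamts17*, *Adamts19*, *Mmp1b*, *Mmp7*, *Mmp8*, *Mmp10*, *Mmp20*, *Mmp21*, *Mmp27*), so that for these 11 only a bound near background is known. With limma and Benjamini-Hochberg adjustment over all probes, 0 of 43 passed an adjusted p of 0.05, and so did 0% of all probes. At an unadjusted p under 0.05, limma gave 2 of 43 (4.65%), *Mmp24* and *Adamts13*, against 8.56% of all probes. *Mmp24* lost this p without WT replicate 1 or 3 or *Cmah*-null replicate 2 or 3, *Adamts13* without WT replicate 2 or 3 or *Cmah*-null replicate 1 or 3, and both lost it when the fit held only probes detected on at least 3 arrays. *Mmp24* also lost it with a trended, robust variance prior and *Adamts13* with median scaling. The same 2 were the genes with all 3 *Cmah*-null values above all 3 WT values (4.65%, against 9.11% of all probes), and 0 lay wholly below (7.33% of all probes). No member combined a 1.5-fold change with an unadjusted p under 0.05, against 1.3% of probes higher and 1.41% lower in *Cmah*-null samples. The member shares were thus at or under the background of the array.

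The median log2 change was 0.04 over the 43 genes, 25 of them positive and 18 negative, and 0.07 over the 29 detected on at least 3 arrays. All probes together had a median of 0.00. Changes of the 29 ran from −0.33 to 0.69, and the median half-width of their 95% intervals was 0.59, the size of a 1.5-fold change. Differences smaller than that were therefore not detectable for many members with 3 arrays a group. The plot of changes by class shows these intervals.

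**Figure D1:**
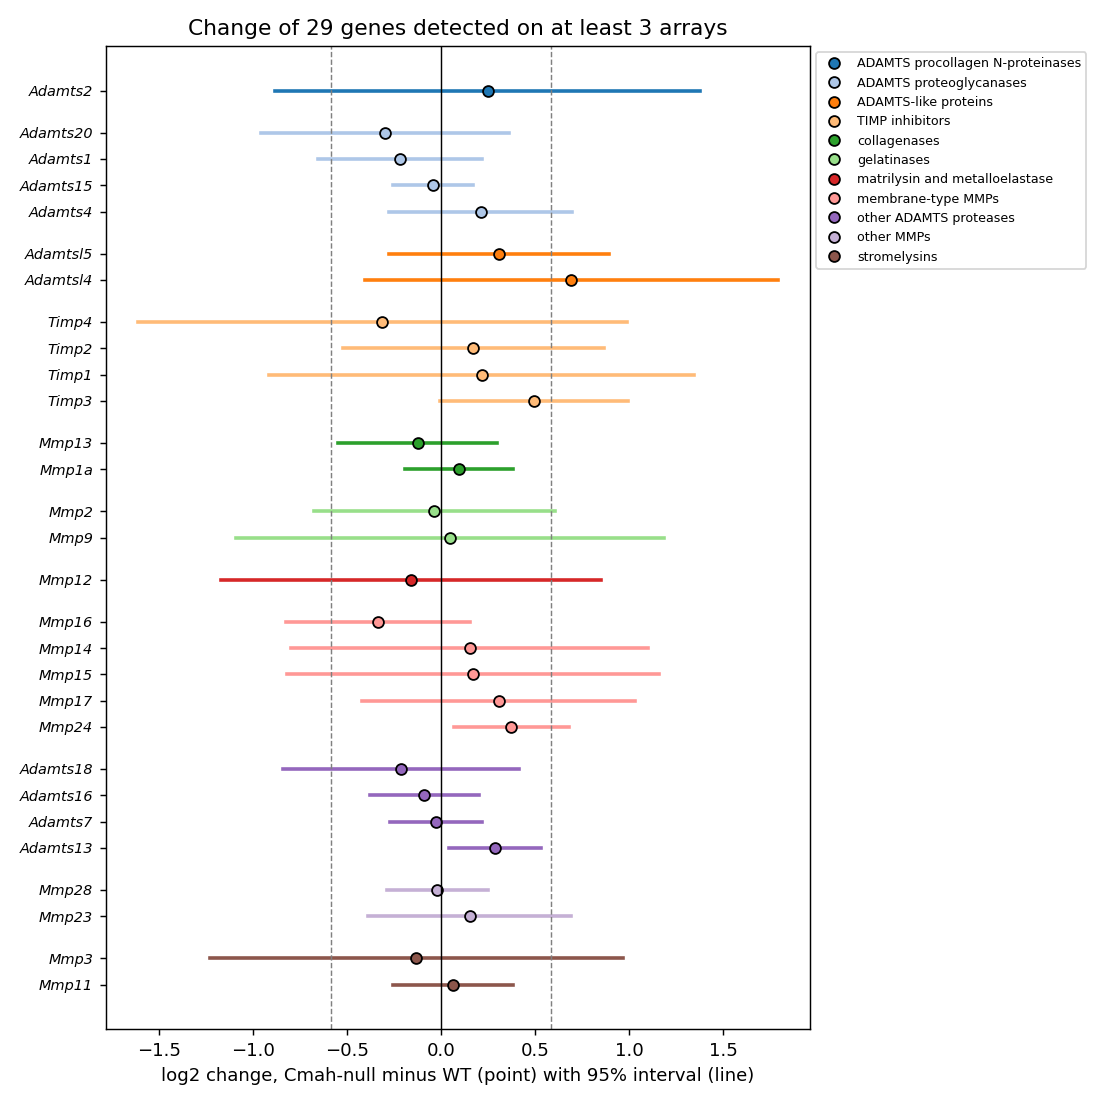
Log2 change (points) with its 95% interval (lines) from limma for the 29 genes detected on at least 3 of 6 arrays, coloured by class, with dashed lines at a 1.5-fold change. The intervals of 27 genes span 0, those of *Mmp24* (0.07 to 0.68) and *Adamts13* (0.05 to 0.53) do not, and only *Adamtsl4* has a point beyond a dashed line.

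Among collagenases, which open the triple helix of fibrillar collagen, *Mmp13* is the one made by hypertrophic cartilage and bone cells. The *Mmp13* log2 signals were 13.56, 13.84 and 13.55 in WT and 13.74, 13.65 and 13.19 in *Cmah*-null samples. The groups overlapped and *Cmah*-null replicate 3 was lowest, with a log2 change of −0.12 (95% interval −0.55 to 0.30, adjusted p = 0.864 by limma). Its 2 other probes gave −0.36 and −0.14. Of these, the first, detected on 6 arrays, read 8.31, 8.06 and 8.30 in WT and 7.76, 7.94 and 7.89 in *Cmah*-null samples. Its groups did not overlap, with an unadjusted p of 0.0127 and an adjusted p of 0.479 by limma. The probes of *Mmp13* thus had the same sign but not the same separation, and only the one with the higher mean signal represented the gene in the counts above. With every probe of a symbol counted, 3 of the 57 member probes had an unadjusted p under 0.05 by limma, against 8.56% of all probes. *Mmp1a*, the mouse interstitial collagenase, read 8.46, 8.85 and 8.64 in WT and 8.78, 8.69 and 8.77 in *Cmah*-null samples, which overlapped at a log2 change of 0.10 (95% interval −0.19 to 0.39).

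The stromelysins cut proteoglycans and activate other MMPs. *Mmp3* read 7.61, 8.72 and 9.24 in WT and 8.74, 8.47 and 7.96 in *Cmah*-null samples. Its WT values spread more widely than its *Cmah*-null values, and the log2 change was −0.13 (95% interval −1.23 to 0.97). The other probes of *Mmp3* gave 0.30 and 0.06, so that its sign depended on the probe. The WT order of *Mmp3* was that of *Epyc*, a proteoglycan of the cochlea, which read 7.28, 9.04 and 9.45 in WT and 8.45, 8.45 and 7.61 in *Cmah*-null samples. The summed signal of the cochlear matrix and support markers (8 of 9 detected on at least 3 arrays) was 13.58 to 14.74 in WT and 14.38 to 14.43 in *Cmah*-null samples. Of these markers, *Otos*, *Coch*, *Gjb6* and *Slc26a4* also had the WT order of *Mmp3*, and *Otoa*, *Tecta*, *Tectb* and *Gjb2* did not. *Epyc* was chosen after the values were seen, and its part in *Mmp3* was not tested. *Mmp12*, the macrophage elastase, was detected on 4 arrays and read 7.18, 7.59 and 8.72 in WT and 7.86, 7.81 and 7.35 in *Cmah*-null samples, with WT replicate 3 highest and a log2 change of −0.16 (95% interval −1.17 to 0.85).

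**Figure D2:**
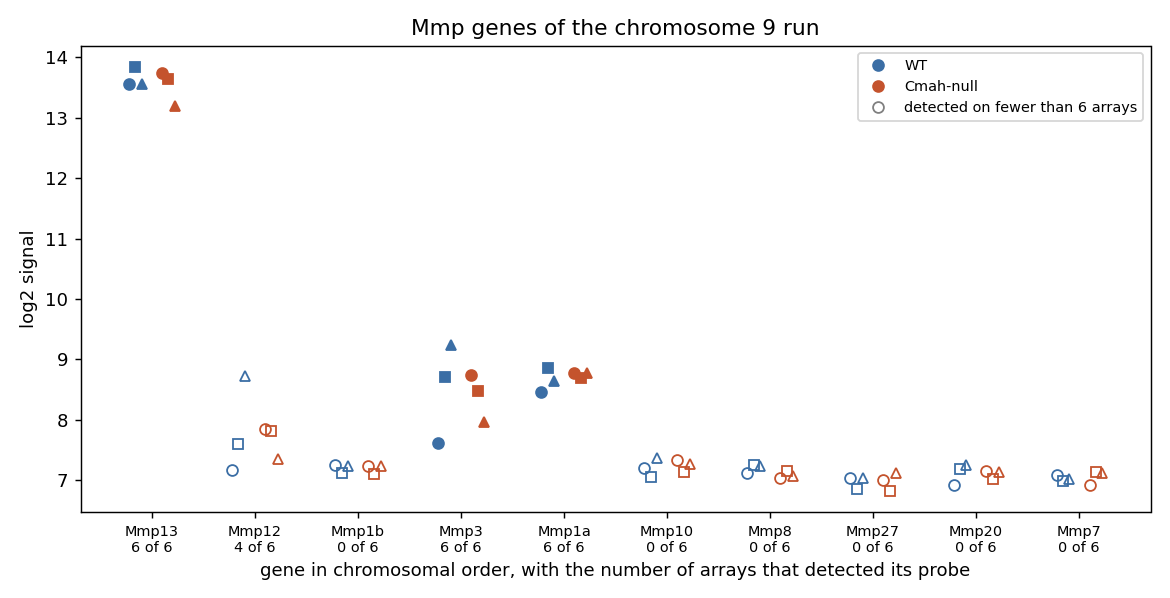
Log2 signal of each array for the 10 *Mmp* genes of the chromosome 9 run in chromosomal order, WT in blue and *Cmah*-null in red, with open points for probes detected on fewer than 6 arrays. Only *Mmp13*, *Mmp3* and *Mmp1a* were detected on 6 arrays, *Mmp12* on 4 and the other 6 genes on none. Signals of different probes cannot be set against each other.

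The gelatinases take apart denatured collagen and type IV collagen of basement membranes. *Mmp2*, made by fibroblasts and other mesenchymal cells, read 13.57, 13.65 and 12.79 in WT and 13.18, 13.17 and 13.57 in *Cmah*-null samples. WT replicate 3 was lowest, the groups overlapped, and the log2 change was −0.03 (95% interval −0.68 to 0.61). *Mmp9*, the gelatinase of neutrophils and osteoclasts, read 11.09, 11.86 and 11.77 in WT and 11.11, 11.15 and 12.61 in *Cmah*-null samples. *Cmah*-null replicate 3 was highest, and without it the log2 change of *Mmp9* turned from 0.05 to −0.45. The same array was highest in the osteoclast factor *Nfatc1*, at 11.38 against 9.40 to 9.81 on the other arrays, and in *Oscar*, but not in *Acp5*, where it read 8.12 and WT replicate 3 was highest at 8.33, and it was lowest in *Ctsk*, a cathepsin of osteoclasts, at 11.70. Of the osteoclast markers, *Acp5*, *Oscar* and *Nfatc1* were detected on 6 arrays, *Tm7sf4* on 1, and *Calcr*, *Atp6v0d2* and *Itgb3* on none. The summed osteoclast signal was 10.42 to 10.43 in WT and 10.42 to 11.77 in *Cmah*-null samples, with 3 of 7 markers detected on at least 3 arrays. The part of osteoclasts in the *Mmp9* value was not tested.

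The 5 membrane-type MMPs include the activator of *Mmp2*, *Mmp14*, and the enzyme of the nervous system, *Mmp24*, also called MT5-MMP. *Mmp24* (chromosome 2, band 2qH1), whose promoter is printed above, read 11.14, 11.41 and 11.17 in WT and 11.43, 11.65 and 11.76 in *Cmah*-null samples. The lowest *Cmah*-null value stood 0.02 above the highest WT value.
The SD within each genotype was less than the distance between the *Mmp24* means, 11.24 in WT (SD 0.15) and 11.61 in *Cmah*-null samples (SD 0.17, n = 3 each). Its log2 change was 0.38 ± 0.12 (SE), a fold of 1.30 with a 95% interval of 0.07 to 0.68, and the adjusted p of limma was 0.541. Within the arrays with fewer beads per probe (WT replicate 1 with *Cmah*-null replicates 1 and 2) the change of *Mmp24* was 0.40, and within the arrays with more beads (WT replicates 2 and 3 with *Cmah*-null replicate 3) it was 0.47. Since the *Mmp24* groups did not overlap, neither value could be negative, so this split is no further check of its direction.

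*Mmp14*, also called MT1-MMP, read 12.33, 12.82 and 12.24 in WT and 12.11, 12.29 and 13.45 in *Cmah*-null samples. Only *Cmah*-null replicate 3 exceeded the WT range, and without it the log2 change of *Mmp14* turned from 0.15 to −0.26. *Mmp15* (MT2-MMP) read 10.06, 9.73 and 9.60 in WT and 9.53, 9.49 and 10.89 in *Cmah*-null samples, and *Mmp17* (MT4-MMP, held by a lipid anchor) read 9.18, 9.43 and 9.57 and then 9.40, 9.35 and 10.36. Both were named after their values were seen, and both had *Cmah*-null replicate 3 as the highest array. Their log2 changes were 0.17 and 0.31, and without that array −0.29 and −0.02. *Mmp16* (MT3-MMP) was detected on 3 WT arrays and 1 *Cmah*-null array, with a log2 change of −0.33 (95% interval −0.82 to 0.15). Of the other MMPs, *Mmp23*, another membrane-bound enzyme, read 10.10, 10.87 and 10.45 in WT and 10.44, 10.60 and 10.85 in *Cmah*-null samples, which overlapped at a log2 change of 0.15.

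**Figure D3:**
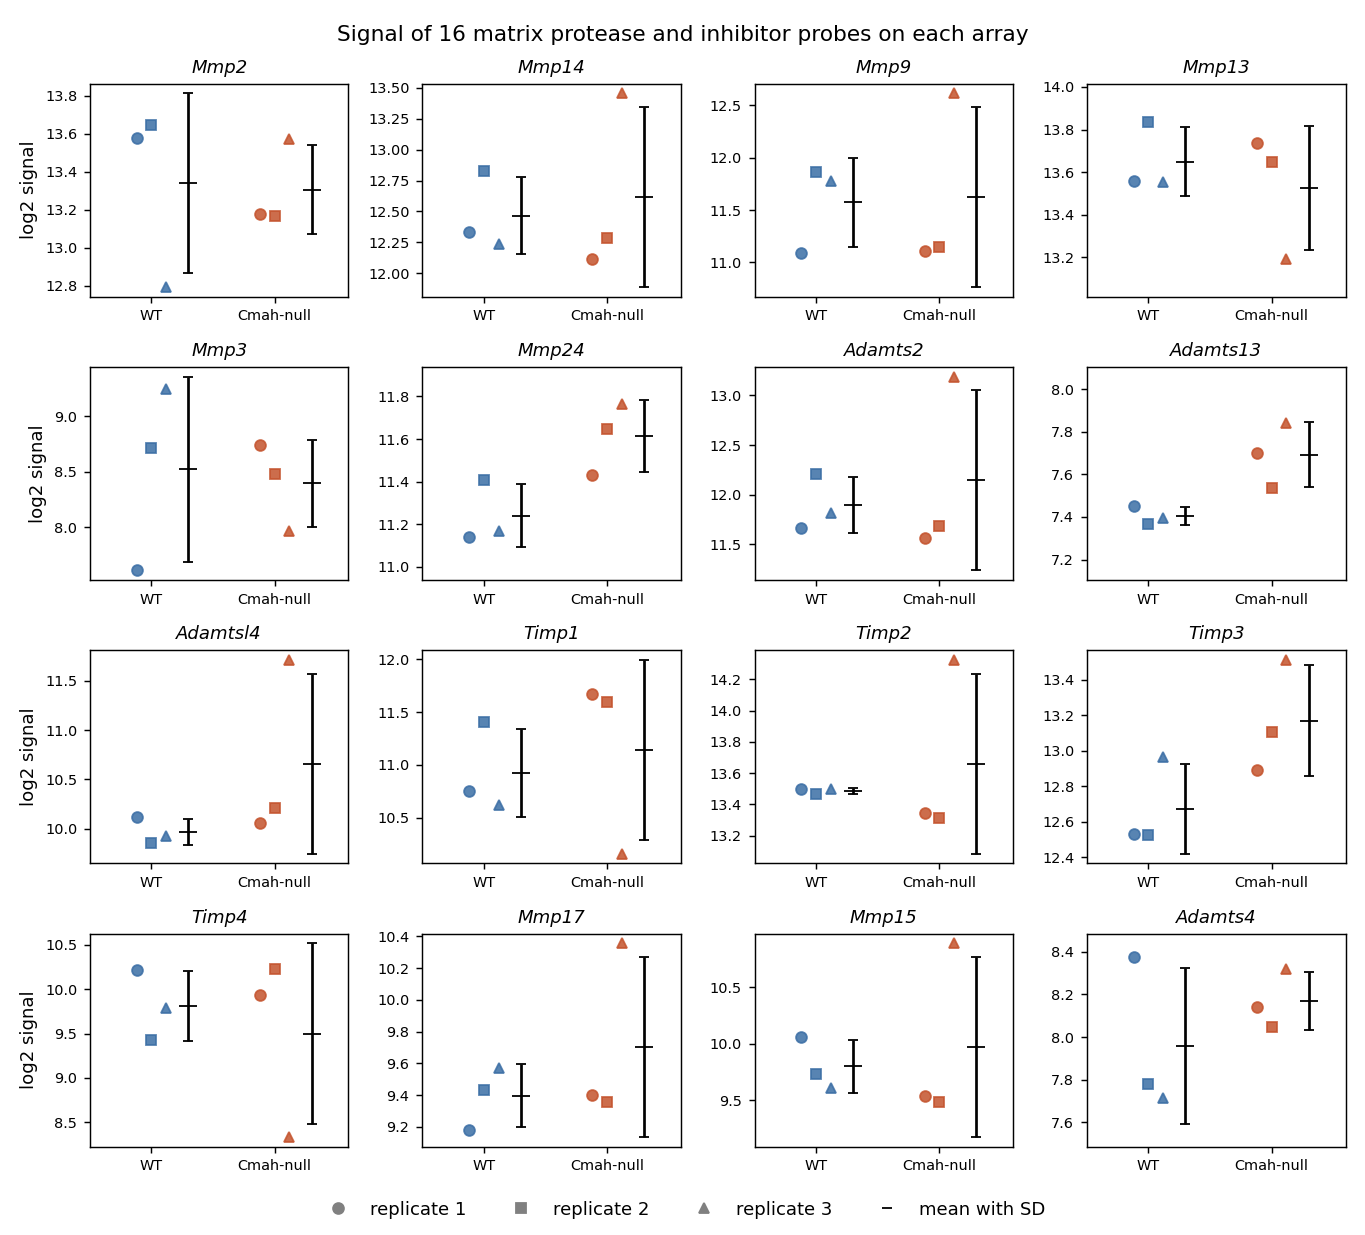
Log2 signal of 16 genes on each array, WT in blue and *Cmah*-null in red, with the replicate number as symbol and the mean with its SD (n = 3) as a black bar. The groups do not overlap in *Mmp24* and *Adamts13*, and *Cmah*-null replicate 3 (red triangle) lies beyond the other 5 arrays in *Mmp14*, *Mmp9*, *Adamts2*, *Adamtsl4*, *Timp2*, *Timp4*, *Mmp17* and *Mmp15* among others.

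ADAMTS proteases were read mostly near background, with 4 of 14 detected on 6 arrays. *Adamts13*, which cuts von Willebrand factor in blood, was detected on 1 WT array and 3 *Cmah*-null arrays. Its log2 signals were 7.45, 7.37 and 7.40 in WT and 7.70, 7.54 and 7.84 in *Cmah*-null samples. The groups stood 0.09 apart, and the log2 change of *Adamts13* was 0.29 ± 0.10 (SE), with a 95% interval of 0.05 to 0.53 and an adjusted p of 0.546 by limma. A second *Adamts13* probe was detected on no array and gave 0.18. With background-corrected signals (neqc) the change of *Adamts13* was 0.78, and with median scaling it was 0.22, or −0.08 relative to the shift of all detected probes given further on. *Vwf*, its substrate, read 10.94, 11.23 and 11.46 in WT and 11.44, 11.58 and 13.32 in *Cmah*-null samples, which overlapped.

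*Adamts2* removes the amino-terminal propeptide of procollagen. It read 11.66, 12.21 and 11.81 in WT and 11.57, 11.68 and 13.19 in *Cmah*-null samples, so that *Cmah*-null replicate 3 alone lay above the WT range. The log2 change was 0.25 (95% interval −0.88 to 1.38), and −0.27 without that array. Its other probes gave 0.16 and −0.01. Its substrate collagens spread even more widely, with *Col1a1* between 10.91 and 15.33 over the WT arrays.

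The proteoglycanases cut aggrecan, versican and their relatives. *Adamts4* read 8.38, 7.78 and 7.72 in WT and 8.14, 8.05 and 8.32 in *Cmah*-null samples, a log2 change of 0.21 with overlapping groups. Leaving out 1 array took *Adamts4* from 0.09 (without WT replicate 3) to 0.42 (without WT replicate 1, with an unadjusted p under 0.05). *Adamts20*, named after its values were seen, read 8.31, 8.15 and 7.34 in WT and 7.56, 7.53 and 7.82 in *Cmah*-null samples, a log2 change of −0.30 (95% interval −0.96 to 0.36). Its WT replicate 3 was the lowest array, apart from the other WT values, and without it the log2 change of *Adamts20* was −0.59, past 1.5-fold with an unadjusted p under 0.05. Without WT replicate 1 it was −0.11 and without WT replicate 2 it was −0.19, neither past that p. *Adamts1* and *Adamts15* gave −0.22 and −0.04. In the last group of ADAMTS proteases, *Adamts18* read 8.92, 8.69 and 8.06 in WT and 8.46, 8.53 and 8.05 in *Cmah*-null samples, with a replicate 3 lowest in each genotype and a log2 change of −0.21.

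Of the ADAMTS-like proteins, *Adamtsl4*, which binds fibrillin microfibrils, had the largest change of the 43 genes. It read 10.12, 9.86 and 9.93 in WT and 10.06, 10.21 and 11.71 in *Cmah*-null samples. The size rested on *Cmah*-null replicate 3, and the log2 change of *Adamtsl4* was 0.69 (1.62-fold, 95% interval −0.41 to 1.79, adjusted p = 0.703 by limma) with that array and 0.17 without it. This made it the 1 member past 1.5-fold, against 2.67% of all probes higher in *Cmah*-null samples, and 0 members were lower by that much, against 3.28%. *Adamtsl5*, named after its values were seen, read 8.07, 8.28 and 8.18 in WT and 8.23, 8.21 and 9.03 in *Cmah*-null samples, with the same array alone above the WT range and a log2 change of 0.31, or 0.04 without it.

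The 4 TIMP inhibitors were detected on 6 arrays, 3 with a positive and 1 with a negative change. *Timp3*, which is bound to the matrix and blocks ADAMTS enzymes and ADAM17 as well as MMPs, read 12.53, 12.53 and 12.97 in WT and 12.90, 13.11 and 13.51 in *Cmah*-null samples. Its groups overlapped through WT replicate 3 and *Cmah*-null replicate 1 by 0.07. The log2 change of *Timp3* was 0.50 ± 0.20 (SE), with a 95% interval from just under 0 to 1.00 and an adjusted p of 0.584 by limma. A second *Timp3* probe, detected on 6 arrays, gave 0.04, so that its change was seen with 1 probe. Without WT replicate 3 or *Cmah*-null replicate 1, *Timp3* passed 1.5-fold with an unadjusted p under 0.05, with log2 changes up to 0.64.

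*Timp1*, an inducible inhibitor of most secreted MMPs, read 10.75, 11.40 and 10.62 in WT and 11.67, 11.59 and 10.16 in *Cmah*-null samples. *Cmah*-null replicates 1 and 2 were highest and replicate 3 was lowest, and the log2 change of *Timp1* was 0.22, or 0.71 without replicate 3, where it passed 1.5-fold with an unadjusted p under 0.05. A second probe gave 0.23 with the same order. Among the 9 neutrophil markers, *Cmah*-null replicate 3 was lowest in 2 (*S100a8* and *S100a9*), highest in 3 (*Mpo*, *Prtn3* and *Cd177*) and between the others in 4. Among the 9 macrophage markers it was lowest in 4, highest in 1 and between the others in 4. The part of neutrophils or macrophages in *Timp1* was not tested. The summed signal of the 9 neutrophil markers was 16.31 to 16.76 in WT and 16.39 to 16.60 in *Cmah*-null samples (log2), with 9 of 9 detected.

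*Timp2*, which with *Mmp14* brings proMMP2 to the cell surface, read 13.50, 13.46 and 13.50 in WT and 13.35, 13.31 and 14.32 in *Cmah*-null samples. The WT values were nearly equal, and the *Cmah*-null arrays lay on either side of them, 2 below and replicate 3 above. Its log2 change was 0.17, or −0.16 without that array. *Timp4*, the inhibitor known from heart and fat, read 10.21, 9.43 and 9.79 in WT and 9.93, 10.23 and 8.33 in *Cmah*-null samples. *Cmah*-null replicate 3 was lowest, and the log2 change was −0.31 (95% interval −1.61 to 0.99), or 0.27 without it. The same array had the lowest summed brown fat and white fat signals, 12.89 and 14.01, with 5 of 6 markers of each list detected, and the part of fat in *Timp4* was not tested.

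*Cmah*-null replicate 3 was thus the highest or the lowest of the 6 arrays in 15 of the 21 genes detected on 6 arrays (71.4%). Over all probes detected on 6 arrays the share was 68.3%, close to the share of the members. It was highest in 11 of the 21 (52.4%, against 36.6% of those probes) and lowest in *Adamts18*, *Mmp13*, *Timp1* and *Timp4* (19%, against 31.7%). The median distance from the WT mean was 0.76 for replicate 3 and 0.16 for the mean of replicates 1 and 2, without regard to sign, against 0.47 and 0.20 over the probes detected on 6 arrays. The distance of replicate 3 was thus larger for these 21 genes than for the array, which is a description and was not tested. A high place of replicate 3 was not particular to the members. Among genes detected on 6 arrays in the lists given below, it was highest in 7 of 9 other MMP regulators, 5 of 6 crosslinking enzymes, 4 of 4 AP-1 factors and 6 of 11 other matrix substrates. It was highest in 3 of 6 ADAM, tolloid and meprin proteases, 1 of 8 collagens, 1 of 7 cathepsins and cystatins and 1 of 5 plasminogen genes. Of the 22 genes given with their values in all samples, 10 turned sign when this array was left out. *Mmp24* and *Adamts13*, whose groups did not overlap, could not turn. The others that kept their sign were *Timp1*, *Timp3*, *Adamts4*, *Adamts18*, *Adamts20*, *Adamtsl4*, *Adamtsl5*, *Mmp1a*, *Mmp2* and *Mmp23*.

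**Figure D4:**
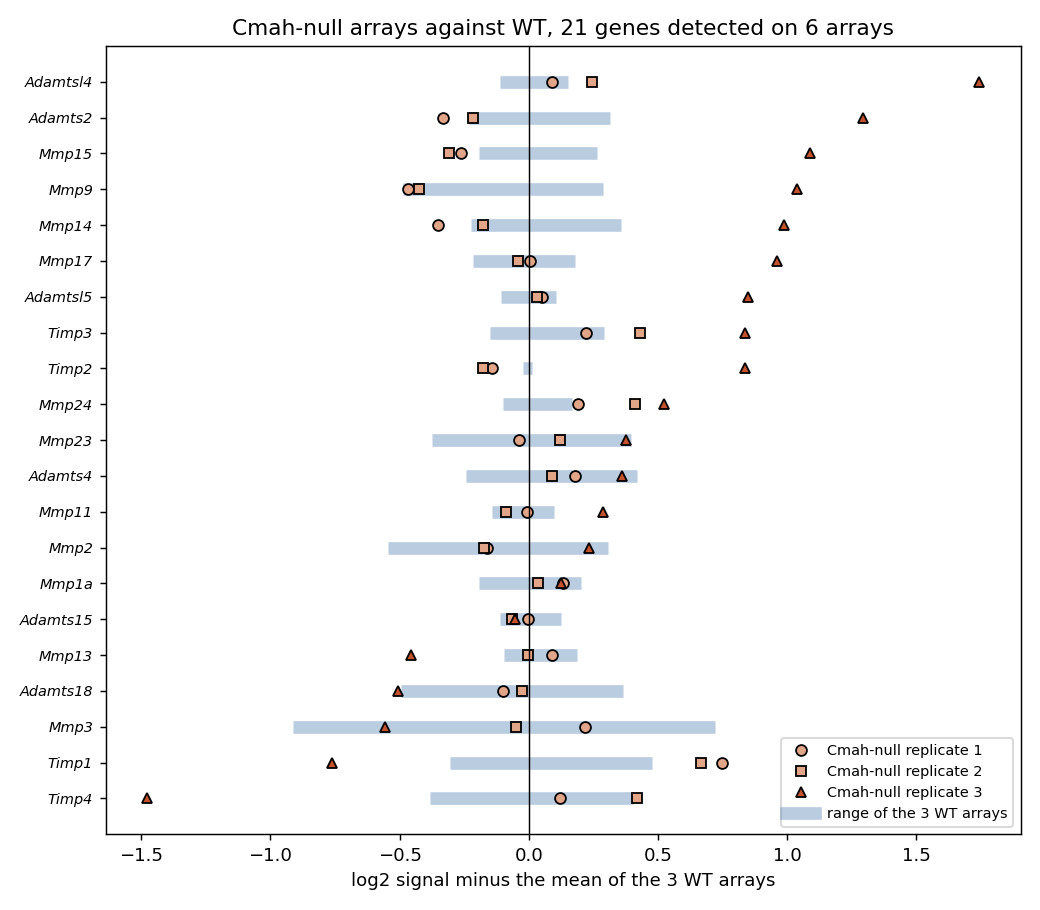
Log2 signal of each *Cmah*-null array minus the mean of the 3 WT arrays for the 21 genes detected on 6 arrays, with the range of the WT arrays as a blue bar. Replicate 3 (dark triangle) reaches 1.74 in *Adamtsl4* and −1.48 in *Timp4*, and replicates 1 and 2 (pale circle and square) lie near each other and mostly near the WT range.

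Genes that act with these enzymes were followed through lists of 95 genes, of which 85 were on the array and 63 were detected on at least 3 arrays. By limma, 0 of 85 passed an adjusted p of 0.05 and 6 (7.06%) an unadjusted p of 0.05, against 8.56% of all probes. At 1.5-fold with that p 2 were higher and 2 lower in *Cmah*-null samples, against 1.3% and 1.41% of all probes. Each count was thus a larger share of the 85 than of all probes, which was not tested. The median log2 change of the 85 was −0.01. The 2 higher ones were AP-1 factors, the proteins whose letters stand in the *Mmp13*, *Mmp3* and *Mmp1a* promoters printed above. *Fos* read 9.71, 10.47 and 10.28 in WT and 11.35, 11.30 and 11.89 in *Cmah*-null samples, without overlap, at a log2 change of 1.36 (95% interval 0.74 to 1.98, adjusted p = 0.397 by limma). *Fosb* gave 0.92, *Junb* 0.96 and *Jun* 0.28, and *Fos*, *Fosb* and *Junb* had groups that did not overlap, as had 9.11% of all probes in that direction. *Cmah*-null replicate 3 was highest in 4 of these 4 genes, and without it the difference was 1.18 for *Fos*, 0.56 for *Fosb*, 0.49 for *Junb* and −0.07 for *Jun*. The 3 genes with AP-1 letters that were detected on 6 arrays, *Mmp13*, *Mmp3* and *Mmp1a*, had log2 changes of −0.12, −0.13 and 0.10. *Mmp12*, which carries the letters before 1 of its 2 listed starts and was detected on 4 arrays, gave −0.16. These values are given side by side, and a link was not tested.

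The 2 lower genes were *Ctsk*, the collagen-cutting cathepsin of osteoclasts, at −0.65 (adjusted p = 0.555 by limma), and *Fbn1*, the fibrillin of microfibrils, at −0.61 (adjusted p = 0.494 by limma). In plasminogen activation, 0 of 11 reached 1.5-fold with p, and its highest mean signal belonged to *Anxa2*, a cell-surface receptor for plasminogen, at −0.10. The urokinase receptor *Plaur*, named after its values were seen, read 7.70, 7.99 and 7.82 in WT and 8.31, 8.31 and 8.30 in *Cmah*-null samples, without overlap, at 0.47. Of the activators *Plat* and *Plau*, *Plat* was detected on no array and *Plau* on 1. Among other MMP regulators, *Furin*, which activates membrane-type MMPs, gave 0.72, and *Reck*, a membrane-anchored inhibitor of them, gave 0.64 with *Cmah*-null replicate 3 highest in both. Neither had an unadjusted p under 0.05 by limma, and 0 of the 12 genes of that list reached 1.5-fold with p. On 1.5-fold alone, 7 of the 85 listed genes were higher and 6 lower, against 2.67% and 3.28% of all probes. Both were larger shares than those of all probes, which was not tested. Of the 85, 63 were detected on at least 3 arrays, against 14883 of all 25697 probes. The 13 collagens, the 8 crosslinking enzymes and the 13 ADAM, tolloid and meprin proteases had 0 genes at 1.5-fold with p in either direction, with *Col1a1* at −0.33, *Tgm2* at 0.50 and *Bmp1* at 0.09.

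The counts depended on the normalization. Scaling each array to its median without the quantile step moved the median change of the probes detected on 6 arrays from 0.03 to 0.30, and the number of members at 1.5-fold with an unadjusted p from 0 to 6, all higher in *Cmah*-null samples. These were *Adamtsl4*, *Mmp17*, *Mmp23*, *Mmp24*, *Timp2* and *Timp3*, with log2 changes that exceeded that shift by 0.30 to 0.82. Of all 25697 probes, 2409 were higher and 79 lower at that threshold with median scaling, against 334 and 363 with the quantile step. *Mmp24* gave 0.88 there (0.58 above the shift) and 0.30 to 0.47 when 1 array was left out. *Timp3* gave 1.02 there (0.72 above the shift) and 0.33 to 0.64. Across the alternatives run, the smallest adjusted p of any of the 22 genes was 0.0918 by limma, that of *Timp3* with median scaling.

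**Figure D5:**
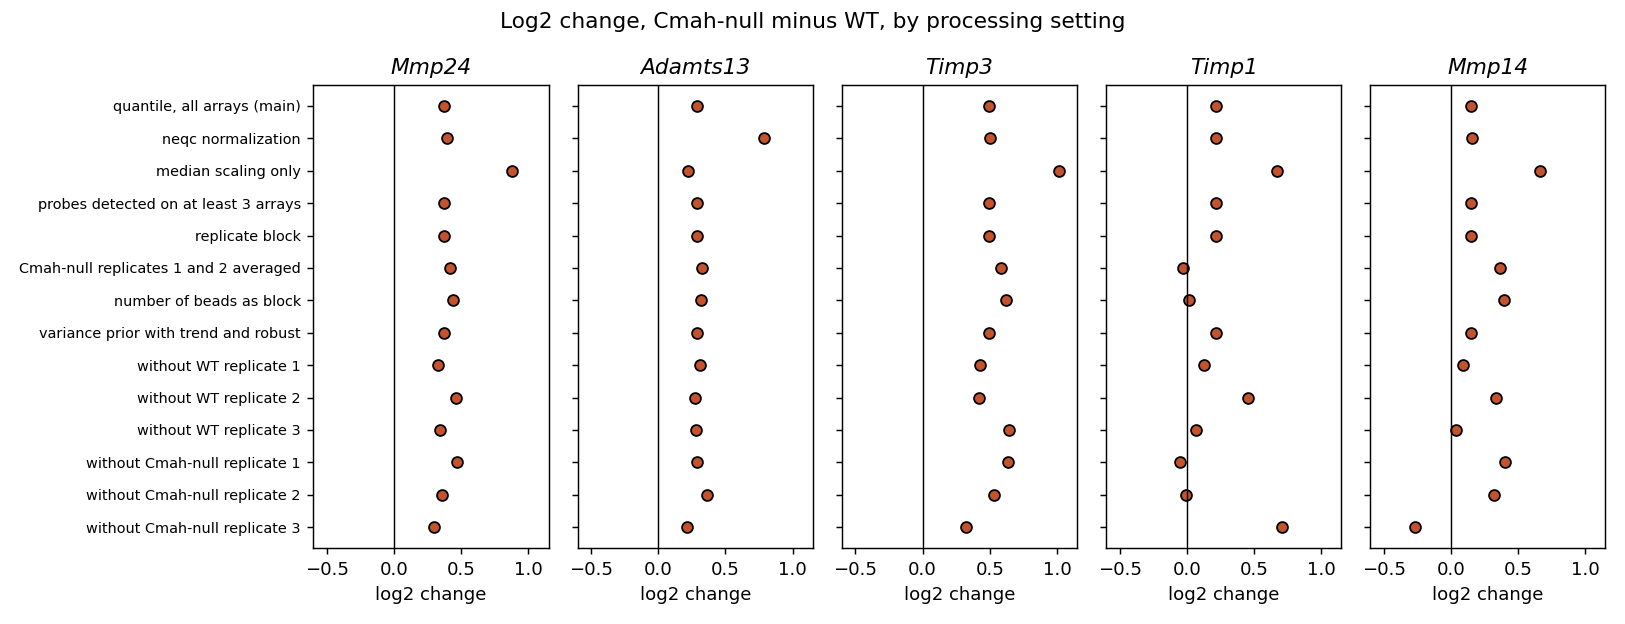
Log2 change of 5 genes (horizontal axis) under each processing setting (vertical axis), 1 point per setting, with a line at 0. *Mmp24*, *Adamts13* and *Timp3* stay to the right of 0 in the settings shown (*Adamts13* not where the shift of 0.30 under median scaling is taken off), *Timp1* and *Mmp14* cross it, and median scaling moves all but *Adamts13* to the right. As their groups did not overlap, *Mmp24* and *Adamts13* could not cross 0 when 1 array was left out.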

How the data were processed

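RNA of the cochlea from 12-month-old mice, 3 of each genotype, was hybridized to Illumina MouseRef-8 v2 arrays, 1 per sample. The deposited raw table holds intensity values, the mean bead signal of each probe, not normalized and without background subtraction, with the number of beads and, per the file headers, a detection p-value against negative controls. The authors' second table holds log2 values, which equalled quantile-normalized raw signals to within 5e-07. Its 12 columns that repeat signals and detection p-values, and its columns of the authors' own comparison (a fold change, a local pooled error statistic and its p-value), were not used. Software for the export was not given in the sources used here. The number of arrays, 3 a group, limits the precision. The study's methods give 3 mice per group, and the labels do not tie each array to an animal, so p-values measure the spread between these samples.

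The log2 values were compared by lmFit and eBayes of limma (version 3.58.1, R version 4.3.3), two-sided and without covariates, and p-values were adjusted by Benjamini-Hochberg over 25697 probes. The script was tested on simulated data. Members and lists were chosen with earlier results of these data known. Genes named are members at 1.5-fold with an unadjusted p under 0.05, members detected on all arrays of a group whose groups did not overlap, the member with the highest mean signal in each class, and *Timp1* to *Timp4*, *Mmp2*, *Mmp9*, *Mmp13* and *Mmp14*; of the other lists, those at 1.5-fold with p and the one with the highest mean signal. Other genes named were chosen after their values were seen. Alternatives were neqc (offset 16), median scaling, a detection filter (at least 3 arrays), a block for the replicate number or for the number of beads, *Cmah*-null replicates 1 and 2 averaged, a variance prior with trend and robust, other probes of a symbol, and each array left out. Symbols of 43 of 43 members matched RefSeq, and promoter sequences are those of RefSeq for GRCm38.p6. The build of the probe coordinates is not given in the sources used here. Of the marker lists, muscle, myelin, hair cell, osteoblast, osteoclast, chondrocyte, epidermis, macrophage, endothelium, erythroid and cochlear support had 0 genes at 1.5-fold with p. Brown fat had 4 lower, choroid plexus and meninges 3 higher, and fibroblast (*Mfap5*), neuron (*Prph*) and white fat (*Lep*) 1 lower each, and neutrophil (*Cd177*) and stria (*Atp1b2*) 1 higher each. Plots were made in Python 3.11.15 with matplotlib 3.10.9.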

Additional observations from a re-analysis of the deposited data

How the results depend on the processing

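Adjusted p under 0.05 was reached by 0 members in all alternatives, and by 0 probes except with the number of beads as a block (3 probes). Probes higher and lower at 1.5-fold with p, 334 and 363, became 784 and 698 with neqc, 2409 and 79 with median scaling and 855 and 873 with the bead block. Probes at an unadjusted p under 0.05, 2199, became 3494 with median scaling, 1339 under the detection filter and 4540 with the bead block. They were 2037 with the trended, robust variance prior and 2126 with the replicate block. Leaving out 1 array gave 191 to 513 higher, 238 to 524 lower and 1233 to 3342 at the unadjusted p.

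Members higher at 1.5-fold with p, 0, became 1 with neqc (*Adamts13*), 6 with median scaling and 1 with the bead block (*Timp3*). With 1 array left out they were 0 to 1 (*Timp3* without WT replicate 3 or *Cmah*-null replicate 1, *Timp1* without *Cmah*-null replicate 3), and lower ones 0 to 1 (*Adamts20* without WT replicate 3). Members at an unadjusted p, 2, became 6 with median scaling, 0 under the detection filter, 5 with the bead block, 1 with the trended prior (*Mmp24* lost) and 1 to 3 with 1 array left out. *Adamts13* lost this p without WT replicate 2 or 3 or *Cmah*-null replicate 1 or 3, and *Mmp24* without WT replicate 1 or 3 or *Cmah*-null replicate 2 or 3. The median change over members detected on at least 3 arrays, 0.07, ran from −0.03 to 0.13 with 1 array left out and was 0.31 with median scaling. Replicate numbers did not pair the samples (correlations of 0.02, −0.17 and 0.01 between same-numbered deviations). The replicate block gave 3 of 43 members at an unadjusted p, against 2126 of 25697 probes.

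Of the 22 genes given by value, 14 turned sign in some alternative and 8 did in none (*Adamts4*, *Adamts13*, *Adamts18*, *Adamts20*, *Adamtsl4*, *Adamtsl5*, *Mmp24*, *Timp3*). For *Adamts13* and *Mmp24*, whose groups did not overlap, leaving out 1 array could not turn the sign. Median scaling turned *Mmp12* to 0.031, *Mmp13* to 0.37, *Mmp2* to 0.47, *Mmp3* to 0.17 and *Timp4* to 0.058. Relative to the shift of 0.30 that this scaling gave all probes detected on 6 arrays, *Mmp12* (−0.27), *Mmp3* (−0.13) and *Timp4* (−0.24) did not turn, *Mmp13* (0.067) and *Mmp2* (0.17) did, and so did *Adamts13* (−0.081) and *Adamts4* (−0.086). Averaging *Cmah*-null replicates 1 and 2 turned *Mmp2* to 0.034 and *Timp1* to −0.028, and other probes turned *Adamts2* to −0.0094, *Mmp1a* to −0.083 (detected on no array) and *Mmp3* to 0.061 and 0.30. With 1 array left out, ranges were −0.27 to 0.54 for *Adamts2*, −0.49 to 0.29 for *Mmp12*, −0.23 to 0.044 for *Mmp13*, −0.26 to 0.41 for *Mmp14*, −0.29 to 0.41 for *Mmp15*, −0.019 to 0.48 for *Mmp17*, −0.31 to 0.12 for *Mmp2*, −0.033 to 0.35 for *Mmp23*, −0.59 to 0.23 for *Mmp3*, −0.45 to 0.31 for *Mmp9*, −0.049 to 0.71 for *Timp1*, −0.16 to 0.35 for *Timp2* and −0.68 to 0.27 for *Timp4*. Causes of these shifts were not tested. Signal over background limits the 11 undetected members and *Adamts13*.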
